A study of Mus musculus with 12 samples.

Results

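miR-221 and miR-222 are microRNAs (miRNAs) cut from neighbouring hairpins on the mouse X chromosome. All 4 of their mature forms, the 3p and 5p arms of both, were taken by name from the 1281 mature miRNAs in the count table, and all 4 had reads in every library. The cells were AKR-2B, a mouse fibroblast line, cultured in soft agar, a medium that keeps cells without attachment. Cultures were kept with 25 ng/mL TGFβ or with vehicle, and RNA was taken at days 2, 4 and 8. Growth and colony formation were not measured in the values used here, so they may differ between the groups. Both groups came from this 1 line under anchorage-free culture. Each condition and day gave 1 miRNA library and 1 mRNA library, 12 in all. The intervals given cover counting error only, so the variation between cultures and between library preparations was not measured, and reads with no molecular identifiers do not count independent molecules.

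A miRNA guides a silencing complex to messenger RNAs whose 3′ untranslated regions (UTRs) pair with its seed, bases 2 to 8 from the 5′ end. miR-221 and miR-222 are made from a common primary transcript and share a seed, so they are counted as 1 family with overlapping targets. The family is best known for lowering Cdkn1b (p27), which holds the cell cycle in check, and Kit, the stem cell factor receptor. In fibroblasts and other dividing cells it has been linked to growth factor signalling.

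The sequences show what the family shares and where its members part. They were taken from RefSeq on build GRCm38.p6, on the minus strand, with the seed in capitals: miR-221-3p from chrX:19146307-19146329, miR-222-3p from chrX:19146901-19146923, miR-221-5p from chrX:19146344-19146369 and miR-1928 from chr1:74206562-74206578.
mmu-miR-221-3p: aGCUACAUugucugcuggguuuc
mmu-miR-222-3p: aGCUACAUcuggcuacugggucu
mmu-miR-1928: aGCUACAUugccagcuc
mmu-miR-221-5p: aCCUGGCAuacaauguagauuucugu
The first 8 bases of miR-221-3p and miR-222-3p were the same. Position by position over their 23 bases, 11 held the same base. No shift or gap was allowed, so stretches after the seed that match when either sequence is moved along were not counted. Of 1679 mouse mature miRNA entries, 3 had this seed, the third being miR-1928. miR-1928 had 0 reads in each library, which allows a level of up to 2.16 to 27.6 RPM, counts scaled to the library total (3 reads, counting error only). The seed of miR-221-5p occurred in 1 entry, its own. In these libraries the listed reads with the shared seed were thus those of miR-221-3p and miR-222-3p.

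The hairpins are given because the arms, and the pair, are compared. Capitals mark miR-221-5p and miR-221-3p in Mir221 and miR-222-3p in Mir222; both hairpins lie on the minus strand, Mir221 at chrX:19146294-19146388 and Mir222 at chrX:19146893-19146971.
Mir221 hairpin: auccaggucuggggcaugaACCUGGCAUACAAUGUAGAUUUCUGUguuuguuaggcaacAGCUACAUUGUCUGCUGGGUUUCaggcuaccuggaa
Mir222 hairpin: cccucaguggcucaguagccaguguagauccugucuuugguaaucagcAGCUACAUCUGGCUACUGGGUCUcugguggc
A stretch of 504 bases separates the hairpins, and 0 other GENCODE genes overlap them. The nearest gene, the processed transcript Gm14636, lies 10010 bases away on the same strand.

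The miRNA libraries held 108716 to 1387785 reads, and within each day the TGFβ library was the deeper. The 6 fibroblast and mesenchyme miRNAs on the marker list were all detected. Levels are in CPM, reads scaled by library size and TMM (trimmed mean of M-values) factors. The summed levels of these 6 were 241930 to 303056 CPM under TGFβ and 109253 to 127050 CPM in vehicle. miR-21a-5p and miR-214-3p made up 81.1% to 101% of that difference, over 100% where other markers were lower under TGFβ. miR-143-3p went the other way at each day, with 14210, 12683 and 15541 CPM under TGFβ at days 2, 4 and 8 and 15286, 21314 and 23518 CPM in vehicle. miR-199a-3p and miR-145a-5p were also lower under TGFβ at day 2. Scaled to total reads, miR-145a-5p was lower on all 3 days, at 0.279, 0.827 and 0.927 times vehicle. On that scale miR-199a-5p was lower at day 2 too, at 0.947 times vehicle. Summed markers of other tissues were low by comparison. Epithelial markers (7 of 7 detected) summed to 15.6 to 985 CPM under TGFβ, the top value at day 2, and 15.4 to 211 CPM in vehicle. The TGFβ library of day 2 held 26, 77 and 26 reads of miR-200a-3p, miR-200b-3p and miR-200c-3p. Every other library held 0 to 2 reads of each. Leukocyte and blood markers (4 of 7) summed to 407 to 755 CPM under TGFβ and 724 to 1166 CPM in vehicle. Nearly all of these reads were of miR-486-5p; miR-142-3p, miR-144-3p and miR-451a were at 0 in every library, and miR-142-5p, miR-223-3p and miR-150-5p had 1 read each, under TGFβ at day 8. Endothelial markers (1 of 2) summed to 7.78 to 23.6 CPM under TGFβ and 0 to 15.4 CPM in vehicle. Nerve markers (1 of 2, with miR-124-3p at 0) summed to 412 to 547 CPM under TGFβ and 318 to 361 CPM in vehicle. Striated muscle markers (3 of 3) summed to 119 to 218 CPM under TGFβ and 15.4 to 89.1 CPM in vehicle. The part that these differences, or depth, had in the values below was not tested.

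Both 3p arms were abundant in every library, and the 5p arms were scarce. CPM here are reads per mature miRNA, scaled with TMM (trimmed mean of M-values) factors. miR-222-3p averaged 9713 CPM over the 6 libraries, place 26 of the miRNAs by mean level, and miR-221-3p averaged 6309 CPM, place 37. miR-221-5p averaged 160 CPM (place 166) and miR-222-5p 51.5 CPM (place 249). miR-222-3p was above miR-221-3p in every library but vehicle day 8, where the order turned. Such orders between miRNAs are of reads, and the order of molecules was not measured. Between the 5p arms, miR-221-5p was above miR-222-5p throughout, with counting intervals that overlapped in the vehicle libraries of days 2 and 4 and the TGFβ library of day 2.

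miR-221-3p, the arm of Mir221 that carries the shared seed, had 652, 2715 and 9997 reads at days 2, 4 and 8 under TGFβ, against 745, 1521 and 3186 in vehicle. These were levels of 3844, 7044 and 8303 CPM under TGFβ and 6035, 5621 and 7009 CPM in vehicle. The TGFβ library of day 2 was the lowest of the 6 and that of day 8 the highest, so TGFβ lay below vehicle at day 2 and above it at days 4 and 8 on this scale, but below it on all 3 days when scaled to total reads. In bulk samples, more cells with a miRNA and more of it per cell cannot be told apart.

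miR-222-3p, its partner from Mir222, had 2032, 4268 and 11457 reads under TGFβ, against 1422, 2279 and 2621 in vehicle. Its levels were 11981, 11072 and 9515 CPM under TGFβ and 11519, 8423 and 5766 CPM in vehicle. Day 2 was the highest day and day 8 the lowest in both treatments, with TGFβ above vehicle by a widening margin on this scale (below it at days 2 and 4 when scaled to total reads).

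Both 5p arms rest on few reads. miR-221-5p, with a seed of its own, had 23, 91 and 253 reads under TGFβ (136, 236 and 210 CPM) and 21, 19 and 64 reads in vehicle (170, 70.2 and 141 CPM). The vehicle library of day 4 was the lowest. miR-222-5p had 11, 16 and 85 reads under TGFβ (64.9, 41.5 and 70.6 CPM) and 7, 12 and 14 in vehicle (56.7, 44.4 and 30.8 CPM). Its intervals were wide, from 22.8 to 117 CPM for the 7 reads of vehicle day 2.

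**Figure D1:**
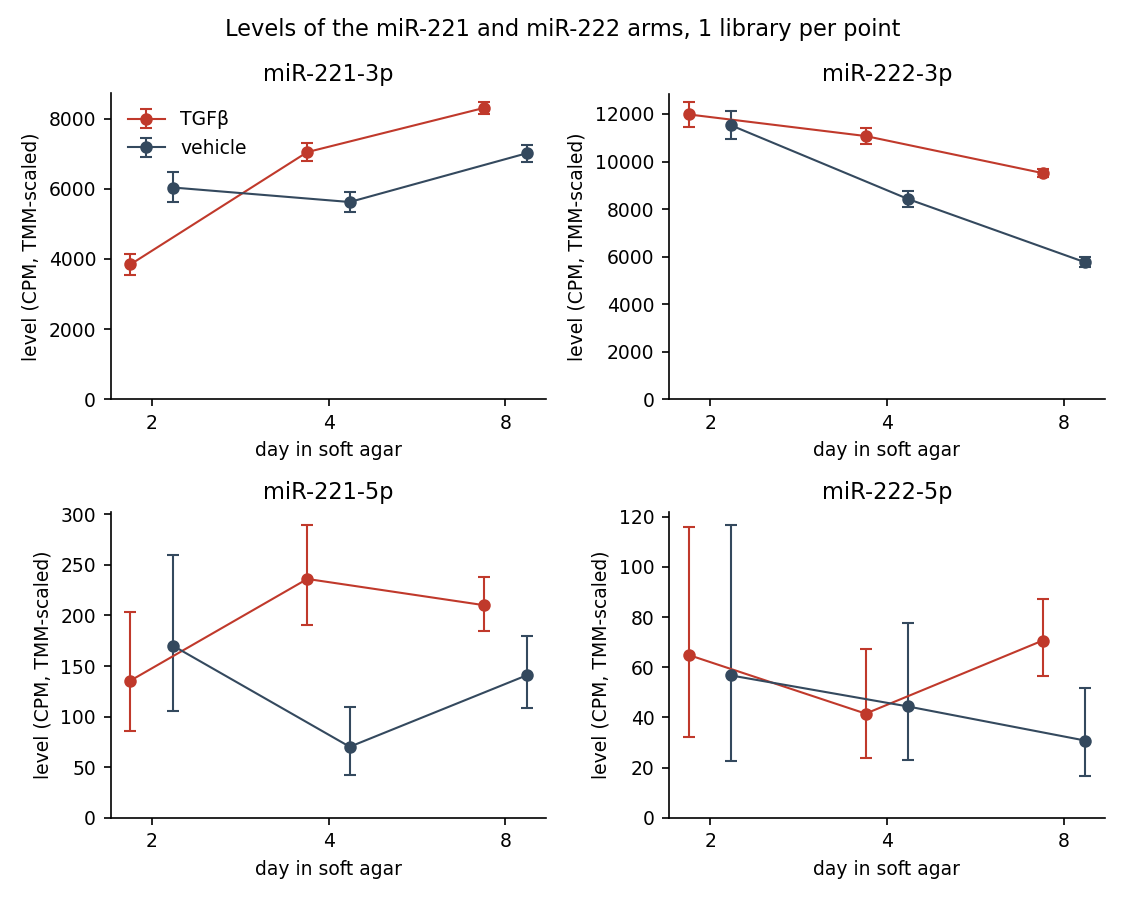
Level of each arm (TMM-scaled CPM, vertical axis from 0) by day in soft agar, TGFβ in red left of vehicle in dark blue; each point is 1 library and bars are exact Poisson 95% intervals, which cover counting error only. miR-222-3p was lower at each later day in both treatments, whereas miR-221-3p under TGFβ was at 3844 CPM on day 2 and 8303 CPM on day 8.

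The design sets TGFβ against vehicle within each day, the question being which miRNAs TGFβ changed during culture in soft agar. The ratio of TMM-scaled reads, TGFβ over vehicle, was for miR-221-3p 0.637 at day 2 (95% counting interval 0.573 to 0.709), 1.25 at day 4 (1.18 to 1.34) and 1.18 at day 8 (1.14 to 1.23). For miR-222-3p it was 1.04 (0.971 to 1.11), 1.31 (1.25 to 1.38) and 1.65 (1.58 to 1.72). So at day 2 miR-221-3p was lower under TGFβ while miR-222-3p differed by less than its counting error with TMM and size factor scaling but not with total reads, and at day 8 both were higher, miR-221-3p with TMM and size factor scaling but not with total reads.

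Several of these directions depended on the scaling. Scaling to total reads lowered all ratios of a day. Over miRNAs whose mean reached 10 CPM, the median fall was 0.25, 0.46 and 0.32 at days 2, 4 and 8. These are log2 CPM differences with a prior count of 2. With total reads miR-221-3p stood at 0.532, 0.901 and 0.938 times vehicle and miR-222-3p at 0.868 (0.811 to 0.930), 0.945 and 1.31 times. With all 3 scalings tried, TMM, DESeq2 size factors and total reads, miR-221-3p was below vehicle at day 2 and miR-222-3p above it at day 8. The day 4 ratios of both, the day 8 ratio of miR-221-3p and the day 2 ratio of miR-222-3p lay above 1 with TMM and below 1 with total reads.

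**Figure D2:**
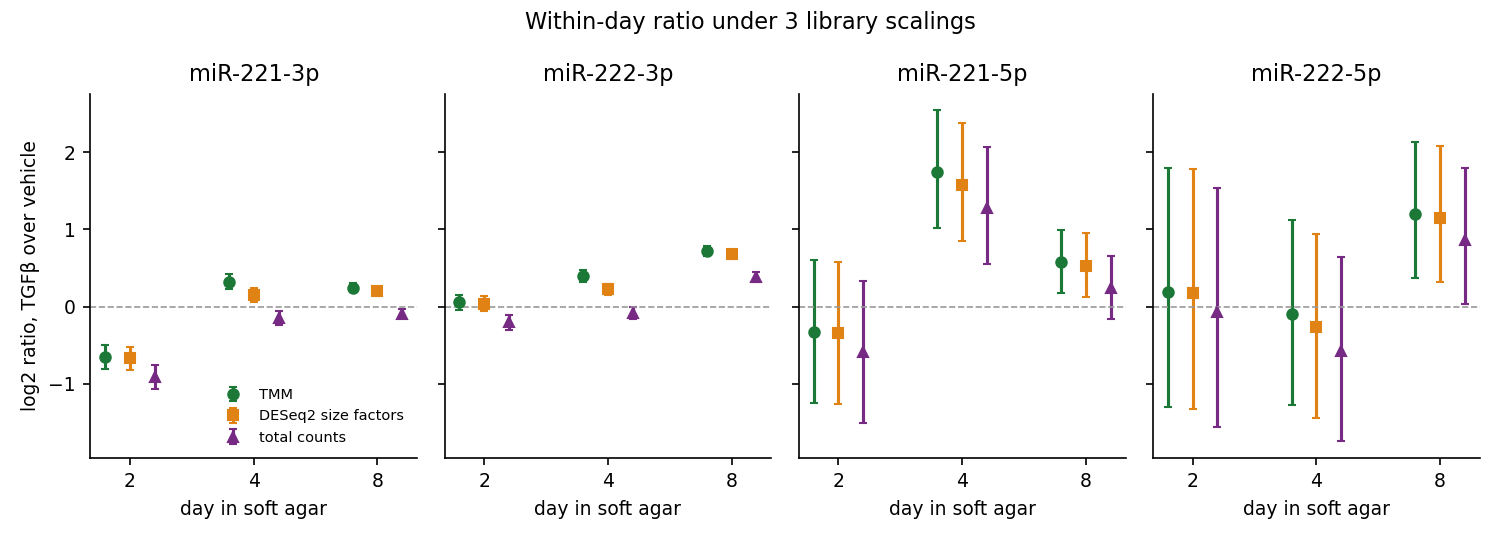
Ratio of TGFβ over vehicle within each day (log2, vertical axis) for the 4 arms under TMM, DESeq2 size factors and total read scaling; bars are exact conditional binomial 95% intervals (counting error only) and the dashed line is no difference. The miR-221-3p points at day 2 all lie below the line and the miR-222-3p points at day 8 all above it, whereas at day 4 the 3p points for total reads lie below it and the TMM points above.

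The 5p ratios were less precise. miR-221-5p was at 0.797 (0.422 to 1.51), 3.36 (2.03 to 5.84) and 1.49 (1.13 to 2.00) times vehicle at days 2, 4 and 8; scaled to total reads the day 4 ratio was 2.42 and the day 8 ratio 1.18 (0.895 to 1.58). miR-222-5p was at 1.14 (0.405 to 3.48), 0.936 (0.415 to 2.17) and 2.29 (1.29 to 4.37), the last 1.82 (1.02 to 3.46) with total reads. Both 5p arms were thus not distinguishable from vehicle at day 2 at this depth, and so was miR-222-5p at day 4.

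A 1.5-fold difference was common among all miRNAs, so the members have to be read against it. At day 2, 1 of the 4 was at least 1.5-fold different (log2 CPM with a prior count of 2), against 50.3% of the 362 miRNAs whose mean reached 10 CPM that day; it was miR-221-3p. At day 4 it was 1 of 4, miR-221-5p, against 59.0% of 366, and at day 8 it was 2 of 4, miR-222-3p and miR-222-5p, against 62.9% of 361. The median log2 difference of the 4 was -0.13, 0.36 and 0.64 at days 2, 4 and 8, and that of all miRNAs -0.041, 0.17 and 0.0062. At none of the days did the members' share exceed that of all miRNAs. The 10 CPM cutoff admits miRNAs with few reads, since 3 reads at day 2 are 16.8 RPM under TGFβ and 27.6 RPM in vehicle. The 3p arms had 652 to 11457 reads. The shares of all miRNAs thus include counting error, and its part was not measured.

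**Figure D3:**
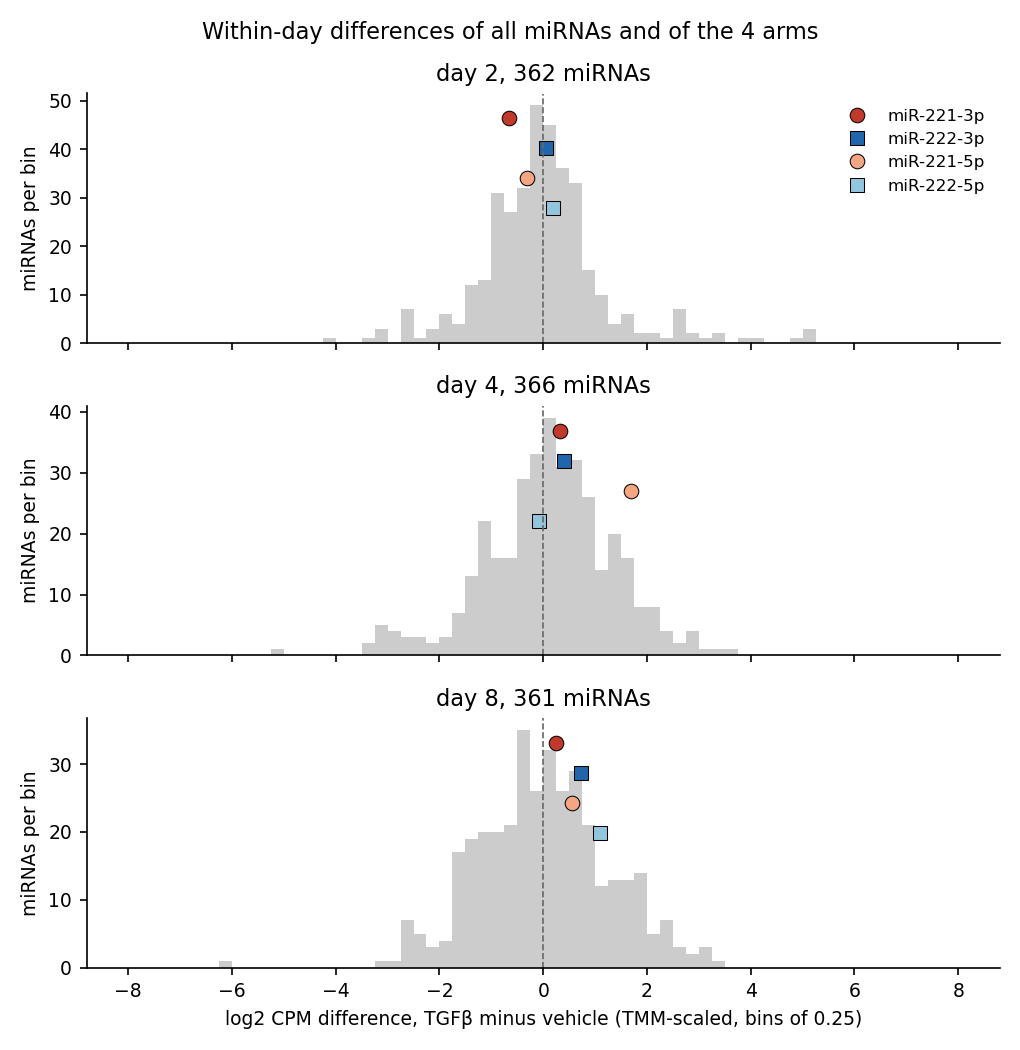
Distribution of the log2 CPM difference, TGFβ minus vehicle, over all miRNAs whose mean in a day's 2 libraries reached 10 CPM (grey bars, miRNAs per bin; panels from top are days 2, 4 and 8), with the 4 arms as marks whose height has no meaning. Most marks lie within the bulk of the miRNAs; the mark farthest out is miR-221-5p at day 4, the 35th highest of 366.

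Averaged over the days, no member passed the test. The log2 change with TGFβ was -0.022 ± 0.30 for miR-221-3p (SE; edgeR quasi-likelihood adjusted p = 0.976), 0.39 ± 0.26 for miR-222-3p (adjusted p = 0.357), 0.69 ± 0.50 for miR-221-5p (0.383) and 0.49 ± 0.53 for miR-222-5p (0.569). Thus 0 of 4 were called, against 1.94% of the 309 miRNAs tested (4 higher and 2 lower). Of the 309, 89 had an unadjusted p under 0.05, and none of them was a member. The number called over all miRNAs was unstable, 2 to 109 when 1 day was left out, the most without day 2. Without day 2 the change of miR-221-3p turned to 0.28, and that of miR-222-3p was 0.55 with adjusted p = 0.0531 against 0.0531 to 0.944 over the alternatives run.

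The course over days set the miRNAs of the cluster apart. Under TGFβ, miR-221-3p was at 1.83 times its day 2 level at day 4 (1.68 to 2.00) and 2.16 times at day 8 (2.00 to 2.34). These ratios were 1.58 to 1.83 and 1.93 to 2.16 over the 3 scalings. In vehicle the day 4 and day 8 ratios were 0.932 (0.853 to 1.02) and 1.16 (1.07 to 1.26). miR-221-3p thus stood well above its day 2 level under TGFβ, while in vehicle it stayed within 1.2-fold of it. Both TGFβ ratios, and the day 2 ratio of TGFβ over vehicle, rest on the 1 TGFβ library of day 2. In the edgeR fit over both treatments, the log2 change of miR-221-3p was 0.64 at day 8 and 0.36 at day 4. Without the TGFβ library of day 2 these changes were 0.21 and -0.076.

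miR-222-3p went the other way. Its day 4 and day 8 levels were 0.924 (0.876 to 0.975) and 0.794 (0.758 to 0.833) times the day 2 level under TGFβ, and 0.731 (0.684 to 0.782) and 0.501 (0.469 to 0.534) times in vehicle. All 4 ratios were below 1 under each of the 3 scalings.

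The 5p arms had wide intervals over the days as well. miR-221-5p was at 1.74 (1.09 to 2.88) and 1.55 (1.01 to 2.49) times its day 2 level under TGFβ. With size factors or total reads these 2 intervals reached below 1. In vehicle miR-221-5p was at 0.413 (0.210 to 0.807) and 0.828 (0.499 to 1.43) times. miR-222-5p was at 0.640 (0.279 to 1.53) and 1.09 (0.579 to 2.26) times under TGFβ. In vehicle it was at 0.782 (0.284 to 2.34) and 0.543 (0.205 to 1.59) times. Under TGFβ, 3 of 4 members were at least 1.5-fold from day 2 at day 4, against 59.9% of all miRNAs. At day 8 it was 2 of 4, against 71.7%. These were miR-221-3p and miR-221-5p at both days and miR-222-5p at day 4. In vehicle there were 1 and 2 of 4, against 50.7% and 60.8%: miR-221-5p at day 4, miR-222-3p and miR-222-5p at day 8. The intervals of miR-222-5p given above all include 1, and the shares of all miRNAs again include counting error.

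Over both treatments, the difference between days did not pass the test for any member. At day 8 against day 2 the log2 change was 0.64 ± 0.37 for miR-221-3p (SE; edgeR adjusted p = 0.273), -0.67 ± 0.32 for miR-222-3p (adjusted p = 0.202), 0.14 for miR-221-5p (0.881) and -0.28 for miR-222-5p (0.778). That is 0 of 4, against 6.8% of 309. Without the vehicle library of day 2, miR-221-3p passed with a log2 change of 1.01 (edgeR adjusted p = 0.0205, the lowest of 0.0205 to 0.804 over the alternatives). At day 4 against day 2 the changes were 0.36 and -0.29 for the 3p arms of miR-221 and miR-222 and -0.15 and -0.49 for the 5p arms, with edgeR adjusted p from 0.733 to 0.937. There 0 of 4 were called, against 0.0% of 309 (26 with an unadjusted p under 0.05; DESeq2 called 1).

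Reads of miR-222-3p over reads of miR-221-3p in the same library need no scaling between libraries, and both are 23 bases long. Under TGFβ this ratio was 3.12 at day 2 (95% interval 2.85 to 3.41), 1.57 at day 4 (1.50 to 1.65) and 1.15 at day 8 (1.12 to 1.18). In vehicle it was 1.91 (1.75 to 2.09), 1.50 (1.40 to 1.60) and 0.823 (0.781 to 0.867). The ratio was lower at each later day in both treatments, with no overlap of intervals between days. TGFβ lay above vehicle with separate intervals at days 2 and 8, and the intervals overlapped at day 4.

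As a fold, the ratio under TGFβ was 1.63, 1.05 and 1.39 times that in vehicle at days 2, 4 and 8. From day 2 to day 8 it changed by a factor of 0.368 under TGFβ and 0.431 in vehicle. Read depth was higher at each later day in both treatments, and its part was not tested. Among pairs of miRNAs within 10 kb, a comparison added after these values were seen, 59.1% of 22 pairs at day 2, 46.7% of 30 at day 4 and 60.0% of 40 at day 8 had a ratio at least 1.5-fold different between TGFβ and vehicle. Over days 2 to 8, 56.1% of 41 pairs under TGFβ and 38.5% of 26 in vehicle had a ratio at least 2-fold different. Each miRNA of a pair needed only 20 reads summed over the 2 libraries compared, so these shares include pairs with wide counting error. The ratio of miR-222-3p to miR-221-3p rests on 2167 to 21454 reads per library.

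Because the 3p arms have the same seed, their reads were also summed. This gives a level in reads, not a number of molecules or a dose per cell. The sum was 15825, 18116 and 17818 CPM at days 2, 4 and 8 under TGFβ and 17554, 14044 and 12775 CPM in vehicle. As a share of all reads it ran from 1.40% (vehicle day 8) to 1.99% (vehicle day 2), with the TGFβ libraries at 1.50%, 1.52% and 1.55%. As a share of all reads the sum was nearly level under TGFβ, but in CPM it was lower at day 2 than at days 4 and 8. The part of miR-222-3p in the sum was 75.7%, 61.1% and 53.4% under TGFβ. In vehicle that part was 65.6%, 60.0% and 45.1%.

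Each hairpin yields a 3p and a 5p arm, of which the silencing complex usually keeps mostly 1. For miR-221 the 3p arm had 28.3, 29.8 and 39.5 reads per 5p read at days 2, 4 and 8 under TGFβ and 35.5, 80.1 and 49.8 in vehicle. The vehicle library of day 4, with 19 reads of the 5p arm, stood apart. The arm ratio under TGFβ was 0.799 (0.416 to 1.53), 0.373 (0.214 to 0.619) and 0.794 (0.592 to 1.05) times that in vehicle. Only the day 4 interval lay wholly below 1.

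For miR-222 the 3p arm had 185, 267 and 135 reads per 5p read under TGFβ and 203, 190 and 187 in vehicle. TGFβ was at 0.909 (0.298 to 2.58), 1.40 (0.605 to 3.17) and 0.720 (0.377 to 1.28) times vehicle, all within counting error. Among hairpins whose arms both had at least 20 reads in a day, the arm ratio was at least 2-fold different in 31.4% of 35 at day 2, 39.4% of 66 at day 4 and 31.8% of 88 at day 8. miR-221 was so at day 4 only and miR-222 at none of the days; miR-222 fell short of the 20 reads at day 2.

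Both hairpins leaned to the 3p side, as did 47.7% of the 86 hairpins with at least 1000 reads. Over all libraries the 3p to 5p ratio was 5.32 on the log2 scale for miR-221 and 7.37 for miR-222. The median absolute arm ratio of the 86 was 5.52, so miR-221 was near the median and miR-222 above it.

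**Figure D4:**
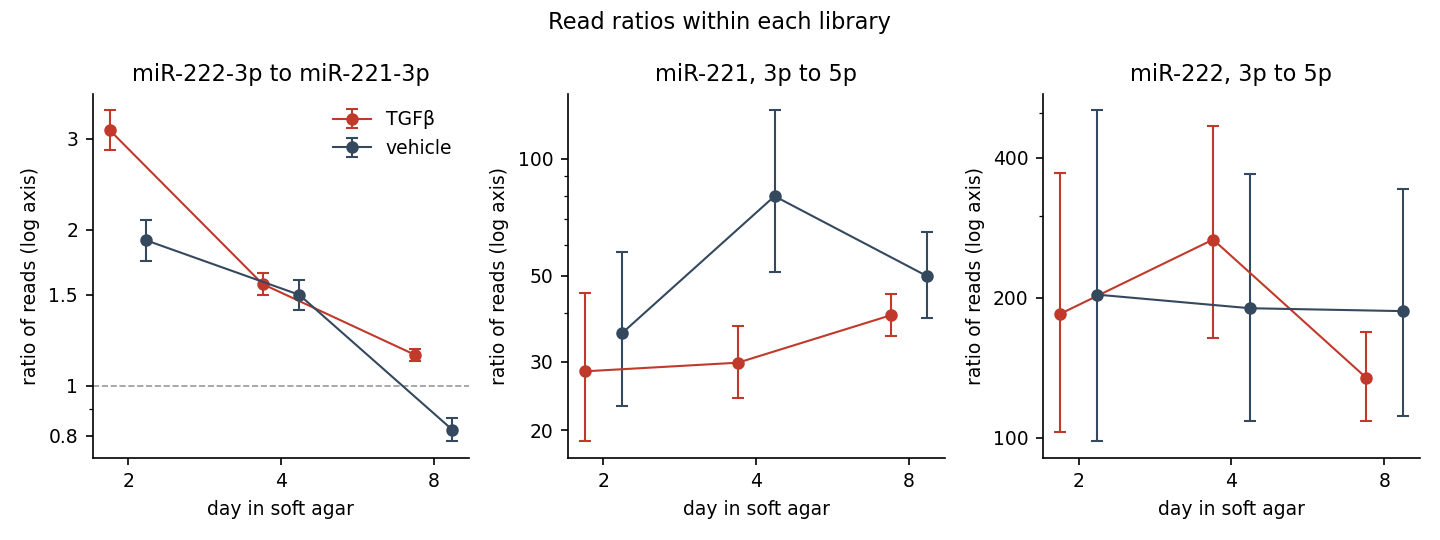
Ratios of reads within each library on log axes, by day in soft agar, TGFβ in red left of vehicle in dark blue: miR-222-3p to miR-221-3p (dashed line, equal reads), then 3p to 5p for miR-221 and for miR-222; bars are 95% Clopper-Pearson intervals turned into ratios (counting error only). The first ratio declines over the days in both treatments, to 1.15 under TGFβ and 0.823 in vehicle at day 8; the miR-221 arm ratio stands apart in vehicle at day 4, at 80.1.

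Likeness of course was described by Pearson's r of log2 CPM over the 6 libraries, among 190 miRNAs whose mean reached 100 CPM; the points share libraries and depth. The 5 most like miR-221-3p were miR-30b-5p (r = 0.989), miR-193b-3p (0.988), miR-324-3p (0.979), miR-145a-5p (0.962) and miR-365-3p (0.95). The 5 most like miR-222-3p were miR-423-3p (0.982), miR-3096b-5p (0.958), miR-296-3p (0.948), miR-5117-3p (0.920) and miR-92a-3p (0.911). The lists had no miRNA in common, and with total read scaling 2 of 5 in each list stayed. miR-222-3p itself came in place 134 for miR-221-3p, with r = -0.40, and miR-221-5p in place 64, with r = 0.47.

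miR-193b-3p shows the course that miR-221-3p shared: 908, 2563 and 3451 CPM under TGFβ and 1677, 1652 and 2697 CPM in vehicle. With TMM scaling it too was lowest under TGFβ at day 2 and highest under TGFβ at day 8. Scaled to total reads, miR-221-3p was highest in vehicle at day 8, at 7678 RPM against 7204 RPM under TGFβ. miR-423-3p, the closest to miR-222-3p, had 25583, 22581 and 17911 CPM under TGFβ and 23670, 18646 and 10987 CPM in vehicle. Like miR-222-3p it was lowest in vehicle at day 8. miR-193b-3p and miR-423-3p were picked for their high r over these same libraries, so these likenesses are no separate finding.

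The mRNA tables permit a look at known or proposed targets, through ratios only. Each of the authors' 3 deposited tables holds 998 genes, 499 above and 499 below 1, with no direction named in its header. In the authors' deposited tables the TGFβ-induced gene Pmepa1 stood at 5.41, 22.1 and 14.2 at days 2, 4 and 8, and the ratios were therefore read as TGFβ over vehicle; read the other way, each direction below would invert. Whether the ratios are scaled for depth is not stated, so they may not be. They have no replicates, and genes outside the tables are not shown to be unchanged.

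Of 19 known or proposed targets of the family, 0 were listed at day 2, 1 at day 4 and 2 at day 8, all below 1. The tables listed 3.71%, 3.83% and 3.9% of the 20954 genes with an annotated 3′ UTR at days 2, 4 and 8, and with so few of the 19 listed nothing is read from the count. Timp3, an inhibitor of matrix metalloproteinases, was listed in the authors' deposited table of day 4 as 8.13-fold lower under TGFβ and in that of day 8 as 12.8-fold lower. Icam1, a leukocyte adhesion receptor, was listed as 9-fold lower in the authors' deposited table of day 8, a ratio of 1 to 9 in lowest terms, so the depth behind it is unknown and may be low. Cdkn1b, Kit and the others were in none of the 3 tables. At these days the summed level of the 3p arms was above vehicle with TMM scaling and, as a share of all reads, below vehicle at day 4 and above it at day 8.

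The target sites show how the seed meets these genes. The 7-base site ATGTAGC pairs with seed bases 2 to 8, and the 8-base site ATGTAGCA, which contains it, adds an A opposite base 1. Both were sought on the mRNA strand of the longest 3′ UTR of each gene in GENCODE (GRCm38). The sites of the listed gene Timp3 and of the best-known targets, Cdkn1b and Kit, are printed 5′ to 3′ with the 7-base site in capitals, all on the plus strand: Timp3 at chr10:86348274-86348302, Cdkn1b at chr6:134924420-134924448 and the first of 2 in Kit at chr5:75654981-75655009.
Timp3: taaaatcatttATGTAGCtgagacacttt
Cdkn1b: aaaagcattggATGTAGCattgcgcaatt
Kit: atgggagatatATGTAGCaagactagaaa
Timp3 had 1 site, of the 7-base kind, in a UTR of 3604 bases; 23.6% of 1825 UTRs of similar length had one. Cdkn1b and Kit had the 8-base form. Icam1 had 0 sites in its UTR of 871 bases, which says only that these letters are not in that window.

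Of the 19 UTRs, 12 (63.2%) held the 7-base site and 10 the 8-base site, against 9.43% and 3.48% of 20954 UTRs with a median of 955 bases. The genes were listed as known or proposed targets, so this share is no finding. Among the mRNAs of the deposited tables with a UTR, the site was in 7.86% of those above 1 and 8.56% of those below 1 at day 2; the shares were 8.81% and 7.05% at day 4 and 7.60% and 8.31% at day 8. Median UTRs of those above and below 1 were 872 and 886 bases long at day 2. They were 1114.5 and 797 bases long for day 4 and 1026.5 and 921 bases long for day 8; the shares were not adjusted for length. At each day both shares lay below the 9.43% of all UTRs. Each share rests on 27 to 37 genes with a site, and its difference from 9.43% was not tested. The 20954 UTRs were also not limited to genes expressed in these cells.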

How the data were processed

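The authors deposited raw read counts per mature miRNA and a second table of RPM (reads scaled to each library's total) for 514 miRNA and precursor pairs. Their mRNA data are 3 deposited tables holding a ratio (fold change) per gene. Per the submitters' processing notes edgeR 3.9 and mm10 played some part, without a stated role; aligner and counter: not given in the sources used here. Per the labels' protocols RNA was extracted with Trizol and purified on RNeasy columns.

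From the counts, edgeR 4.0.16 (R 4.3.3, limma 3.58.1) fitted day plus treatment with its expression filter, TMM scaling and the quasi-likelihood test, Benjamini-Hochberg adjusted over 309 miRNAs at 0.05; all 4 members passed the filter. With 1 library per condition and day, the 2 residual degrees of freedom hold the variation of the response between days. Intervals are 95% and exact (SciPy 1.17.1). Named miRNAs were the members, those with their seed, and the 5 most alike in course; named targets were those listed of 19. Members, lists and comparisons were chosen with earlier results of these data known. Alternatives were other scalings, DESeq2 1.42.0, no filter, other prior counts (0.5 and 5), the RPM table and leaving out libraries.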

Additional observations from a re-analysis of the deposited data

Results flagged for a closer look

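miR-221-3p was the 1 member whose counting intervals lay on both sides of no difference across days. Its log2 CPM difference, TGFβ minus vehicle, was -0.65, 0.33 and 0.24 at days 2, 4 and 8 with TMM scaling, with 1 library per condition and day. The difference between days was not tested. Scaled to total reads the values at days 4 and 8 were below 0, at -0.15 and -0.092, so the opposite directions depend on the scaling; at day 2 the value was -0.91.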

How the results depend on the processing

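The number of miRNAs called by edgeR for TGFβ was 6, and 58 with DESeq2 size factors, 58 with total reads, 46 with no filter, 29 with DESeq2's test and 2 to 109 leaving out a day. For day 8 against day 2 it was 21, and 58, 54, 62, 52 and 1 to 105 leaving out a library; for day 4 against day 2 it was 0, and 2 with size factors, 0 with total reads, 13 with no filter, 1 with DESeq2's test and 0 to 46. Leaving out days or libraries moved log2 changes across 0: for TGFβ, miR-221-3p from -0.28 to 0.28 (positive without day 2) and miR-222-5p from -0.091 to 0.71 (negative without day 8); for day 8, miR-221-5p from -0.51 (without TGFβ day 2) to 0.77 and miR-222-5p from -0.92 to 0.16 (without vehicle day 8); for day 4, miR-221-3p from -0.076 (without TGFβ day 2) to 0.85 and miR-221-5p from -1.01 to 0.53 (positive without vehicle day 2 or 4). miR-221-3p at day 8 ranged from 0.21 to 1.01, called without vehicle day 2. With size factors miR-221-5p at day 8 was -0.0075. No other call on a member changed; the causes were not tested.

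Within-day log2 differences with total reads were -0.91, -0.15 and -0.092 for miR-221-3p at days 2, 4 and 8 and -0.20, -0.081 and 0.39 for miR-222-3p, and the RPM table gave -0.91, -0.15, -0.092, -0.20, -0.081 and 0.39; with size factors the day 4 values were 0.16 and 0.23. Day 4 and day 8 levels over day 2 under TGFβ, with size factors and with total reads, were 1.58 and 1.62, then 1.93 and 1.98, for miR-221-3p, and 0.799 and 0.817, then 0.708 and 0.727, for miR-222-3p; in vehicle at day 8 size factors gave 1.06 and 0.455. Arm ratios with 0.5 added, and miR-222-3p to miR-221-3p ratios from the RPM table, moved within their intervals. With only ratios whose larger term, in lowest terms, was at least 41, 1 target stayed below 1 at day 8. Each group has 1 library, so no replicate numbers pair samples within a day. The day term of the edgeR fit paired TGFβ with vehicle by day. The 5p arms, with 7 to 253 reads, are limited by depth.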
